A study of Homo sapiens with 8 samples.

Results

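Branched-chain amino acid catabolism is the largely mitochondrial route by which leucine, isoleucine and valine are broken down, and it was followed here through 10 genes given as a list of symbols: BCAT1, BCAT2, BCKDHA, BCKDHB, DBT, ACADSB, IVD, MCCC1, HIBADH and ALDH6A1. The rule for the list names genes and sets no threshold on their values, but the genes were chosen with earlier results of these data known. All 10 were found on the arrays by the RefSeq accession of their probes, among 19046 genes measured in all.

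The route opens with transamination, in which the branched-chain aminotransferases (BCAT1 in the cytosol, BCAT2 in mitochondria) move the amino group to 2-oxoglutarate, giving glutamate and a branched-chain keto acid. The branched-chain keto acid dehydrogenase complex (BCKDH) then oxidizes all 3 keto acids to acyl-CoAs, in the step that commits them to breakdown. Its E1 component is built from an alpha subunit (BCKDHA) and a beta subunit (BCKDHB), its core is the E2 acyltransferase (DBT), and a kinase and a phosphatase switch it off and on. From there each amino acid has a branch of its own, and the branches end in acetyl-CoA, acetoacetate or propionyl-CoA, which feed the citrate cycle, ketone bodies and lipid synthesis.

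The cells were A549, a long-established line of human lung cancer cells. In the first series they were given the vehicle or 1.25, 5 or 20 μg/mL of EEDS, an ethanol extract of Descurainia sophia seeds, and in the second the vehicle or 3.75, 15 or 60 nM of helveticoside, a cardiac glycoside found in that extract. The exposure was 48 h by the sample labels and 24 h by the methods. Cardiac glycosides are known for blocking the sodium pump. RNA of 3 cultures was pooled for each condition and put on 1 single-colour Agilent whole human genome array, so there were 8 arrays, 1 array per dose and no replicate of a dose. The 3 doses of each agent are called the low, middle and top dose below, and the 2 agents are matched by this order only, since their doses are in different units.

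On the 8 arrays 54.5% to 64.9% of probes were well above background by the scanner software's own call, and no spot was saturated. Of 8 markers of A549 and epithelial cells (KRT8, KRT18, EPCAM, CDH1, AKR1B10, AKR1C1, NQO1 and ALDH1A1), 8 were well above background on all 8 arrays. Of the defining markers of other cell types, CD3E, PECAM1 and VWF were well above background on none, while PTPRC and CDH5 were so on all 8. The 2 vehicle arrays differed in the members by -0.64 to 0.45 on the log2 scale (helveticoside series minus EEDS series), against an SD of 0.65 for this difference over all genes, so none of the 10 was over 2-fold apart (5.75% of all genes were over 2-fold higher and 4.65% lower). Each treated array was therefore set against the vehicle array of its own series.

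Of the 10 genes, 9 were well above background on all 8 arrays, and BCKDHB was so on 7. Each was read from 1 probe, with 1 spot per array, so the scanner software's error of a log2 ratio was between 0.20 and 0.36 for these genes. This error covers the spot and not the spread between cultures. Levels are given as log2 normalized signal, which can be compared between arrays for 1 gene but not between genes. The arrays were normalized to each other, so a lower signal stands for a lower share of the RNA, and fewer transcripts per cell and fewer cells that express the gene cannot be told apart.

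The members followed different courses. BCAT1 was highest at the middle dose of both agents, BCKDHA stayed within a narrow range, and BCKDHB and ACADSB were lowest at the top doses. The 250 bases before the start site of BCAT1, BCKDHA and BCKDHB, taken from the RefSeq table of GRCh38.p14, are shown so that these different courses can be read beside the sequence. Each is written 5′ to 3′ on the strand of the gene, and capitals mark the letters of the motifs described in the next paragraph.
BCAT1, chr12:24949102-24949351, minus strand: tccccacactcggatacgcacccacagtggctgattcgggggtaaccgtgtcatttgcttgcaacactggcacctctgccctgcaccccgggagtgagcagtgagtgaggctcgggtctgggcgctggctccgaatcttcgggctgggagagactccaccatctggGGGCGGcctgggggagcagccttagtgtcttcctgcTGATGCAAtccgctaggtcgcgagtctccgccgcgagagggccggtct
BCKDHA, chr19:41397568-41397817, plus strand: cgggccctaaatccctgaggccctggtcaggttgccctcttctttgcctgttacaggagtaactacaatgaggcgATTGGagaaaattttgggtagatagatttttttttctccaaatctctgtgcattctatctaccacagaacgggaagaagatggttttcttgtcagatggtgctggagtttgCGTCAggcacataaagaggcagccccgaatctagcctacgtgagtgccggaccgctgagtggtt
BCKDHB, chr6:80106421-80106670, plus strand: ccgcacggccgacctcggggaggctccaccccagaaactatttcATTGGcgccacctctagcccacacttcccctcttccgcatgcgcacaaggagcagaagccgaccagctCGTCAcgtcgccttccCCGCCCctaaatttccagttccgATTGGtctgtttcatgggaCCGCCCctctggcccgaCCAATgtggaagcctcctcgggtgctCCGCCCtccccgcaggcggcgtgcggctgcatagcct

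Short motifs were searched on both strands as plain letters, and each is given with the share of all 27305 windows of this length that hold it. The ATF4-type amino acid response element was searched as TGATGNAA (3.19% of windows). The BCAT1 window held 1 match to it, and BCAT1 was the only one of the 7 members searched that did (BCAT2 and HIBADH had no window in the table). The GC box, searched as GGGCGG (42.3% of windows), was present 1 time in BCAT1 and 3 times in BCKDHB, and was absent from BCKDHA. The CCAAT box (33.0% of windows) was present 3 times in BCKDHB and 1 time in BCKDHA. The core of the cAMP response element was searched as TGACG (21.7% of windows), and was present 1 time each in BCKDHB and BCKDHA. Neither the E-box, searched as CACGTG (6.49% of windows), nor the EGR site, searched as GTGGGCG (8.67% of windows), was present in these 3 windows. Neither the TATA box (TATAAA, in 11.1% of windows), nor the AP-1 site, searched as TGANTCA (6.60% of windows), nor the ETS site, searched as CCGGAAG (8.82% of windows), was in any of the 7 members' windows. The BCKDHA window was the least GC-rich of the 3, at 48.8% against 64.4% for BCAT1, 64.8% for BCKDHB and a median of 58.0% over all windows. The arrays did not measure which start sites were used, and the windows overlap the annotated genes: 239 of the 250 bases shown for BCAT1, the match to the ATF4-type element among them, and 61 of those shown for BCKDHB lie inside the annotated gene.

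BCAT1, the cytosolic aminotransferase, was over 2-fold higher at the middle dose of both agents, and by the probe used here, though not by its second probe, was near its vehicle level at the top dose of EEDS. In the EEDS series its log2 signal was 10.21 on the vehicle array, 10.59 at 1.25 μg/mL, 12.25 at 5 μg/mL and 10.34 at 20 μg/mL. In the helveticoside series it was 10.37 on the vehicle array, 9.83 at 3.75 nM, 12.18 at 15 nM and 11.10 at 60 nM. The middle dose stood apart from all other arrays in both series, by 4.12-fold over the vehicle for EEDS and 3.51-fold for helveticoside, and 98.8% and 98.1% of all genes had a lower ratio on these arrays. At the top dose the log2 ratio to the vehicle was 0.13 for EEDS and 0.73 for helveticoside. By the probes used, BCAT1 was the only member over 2-fold higher on any array, where 7.35% of genes were so at 5 μg/mL EEDS and 7.09% at 15 nM helveticoside.

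BCAT2, the mitochondrial aminotransferase, was lower at the middle and top doses of both agents. Its log2 signal was 12.07, 11.88, 11.60 and 11.28 from the vehicle to 20 μg/mL EEDS, lower at each further dose. With helveticoside it was 11.75 on the vehicle array, 0.25 above that at 3.75 nM, 11.60 at 15 nM and 10.94 at 60 nM. The difference at 15 nM (log2 ratio -0.14) was smaller than the scanner software's error of 0.20. At the top doses BCAT2 was 1.73-fold lower with EEDS and 1.75-fold lower with helveticoside, short of 2-fold. Within an array, the ratio of BCAT1 to BCAT2 was 5.70 times its vehicle value at 5 μg/mL EEDS and 3.87 times at 15 nM helveticoside, and 1.89 and 2.90 times at the top doses.

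Within the BCKDH complex, the subunits did not move together. BCKDHA (E1 alpha) kept a log2 signal of 12.99, 13.17, 13.31 and 13.02 from the EEDS vehicle to the top dose, and 12.89, 13.09, 13.31 and 12.99 in the helveticoside series. Its highest value was at the middle dose of each agent, 1.25-fold and 1.34-fold over the vehicle.

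BCKDHB (E1 beta), the partner that BCKDHA needs to form the E1 enzyme, was over 2-fold lower at the middle and top doses of both agents. Its log2 signal was 8.83 on the EEDS vehicle array, 8.33 at 1.25 μg/mL, 7.44 at 5 μg/mL and 7.26 at 20 μg/mL. With helveticoside it was 8.78 on the vehicle array, 8.81 at 3.75 nM, 6.89 at 15 nM and 5.81 at 60 nM. In both series the middle and top doses lay below the vehicle and the low dose. BCKDHB was 2.62-fold lower at 5 μg/mL and 2.98-fold lower at 20 μg/mL EEDS, and 3.70-fold lower at 15 nM helveticoside. At 60 nM the spot was not well above background, so it was at least 7.85-fold lower there with this processing. The size of this fall depends on the processing, since the log2 ratio there ranged from -3.02 to -1.30 over the alternatives, the smallest fall being that in the authors' table, and the third probe gave a bound of at least 3.20-fold. Relative to BCKDHA on the same array, BCKDHB was 3.06-fold lower at 20 μg/mL EEDS and 4.97-fold lower at 15 nM helveticoside than on the vehicle array.

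DBT, the E2 core to which the other components bind, was lowest at the top dose of both agents and closer to its vehicle at the doses before. Its log2 signal was 9.10, 9.45, 8.89 and 7.92 in the EEDS series from the vehicle to 20 μg/mL. In the helveticoside series it was 8.73, 8.81, 8.84 and 7.87 from the vehicle to 60 nM, so that the low and middle doses lay 0.08 and 0.10 above the vehicle. The top dose was 2.26-fold lower with EEDS and 1.82-fold lower with helveticoside.

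**Figure D1:**
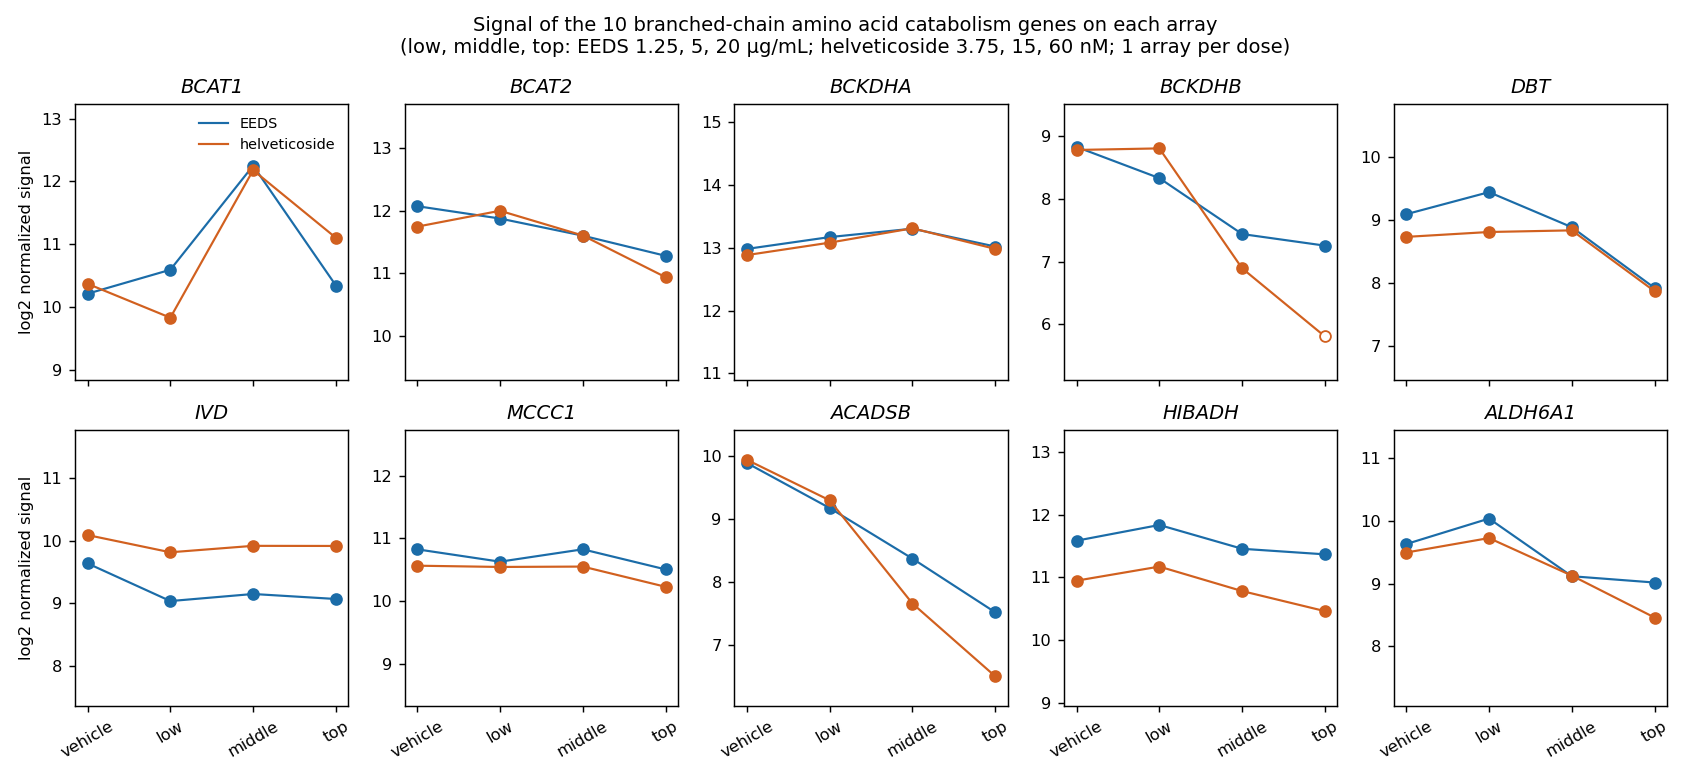
Log2 normalized signal (y axis, same span in each panel) of the 10 genes on the vehicle, low, middle and top dose arrays (x axis) of EEDS (blue) and helveticoside (orange), 1 array per point, with an open point where the spot was not well above background. ACADSB falls at every dose from 9.89 to 7.51 and from 9.95 to 6.49, BCAT1 peaks at the middle dose in both series, and BCKDHA stays between 12.89 and 13.31.

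In the isoleucine branch, ACADSB, the dehydrogenase of short branched-chain acyl-CoAs, had the steepest fall per dose of the 10 genes with both agents. Its log2 signal was 9.89 on the EEDS vehicle array and 9.18, 8.37 and 7.51 at 1.25, 5 and 20 μg/mL. With helveticoside it was 9.95 on the vehicle array and 9.30, 7.65 and 6.49 at 3.75, 15 and 60 nM. Each dose lay below the one before it in both series. ACADSB was 1.64-fold, 2.88-fold and 5.21-fold lower at the 3 EEDS doses, and 1.57-fold, 4.90-fold and 10.9-fold lower at the 3 helveticoside doses. At the top doses, 2.56% of all genes with EEDS and 0.74% with helveticoside had a lower ratio than ACADSB.

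In the leucine branch the values moved little against the vehicle arrays of their own series. IVD (isovaleryl-CoA dehydrogenase), which performs on the leucine side the reaction that ACADSB performs on the isoleucine side, had a log2 signal of 9.64 on the EEDS vehicle array and 9.04, 9.15 and 9.07 at the 3 doses. In the helveticoside series it was 10.09 on the vehicle array and 9.81, 9.92 and 9.92. All 6 treated arrays lay below their vehicle, by 1.13-fold to 1.52-fold, with no order by dose. The direction with helveticoside depends on the vehicle array used, since against the EEDS vehicle IVD was 0.28 above at 60 nM. The size with EEDS depends on it too. Against the helveticoside vehicle the log2 ratios of IVD at the 3 EEDS doses were -1.05, -0.94 and -1.02. MCCC1, the biotin-carrying alpha subunit of methylcrotonyl-CoA carboxylase, was 10.82, 10.63, 10.82 and 10.50 with EEDS and 10.56, 10.54, 10.55 and 10.23 with helveticoside. Its lowest value was at the top dose in both series, 1.25-fold and 1.26-fold below the vehicle. The ratio of ACADSB to IVD within an array was 3.51-fold lower than on the vehicle array at 20 μg/mL EEDS and 9.70-fold lower at 60 nM helveticoside.

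In the valine branch, both genes were slightly above the vehicle at the low dose and below it from the middle dose on. HIBADH (3-hydroxyisobutyrate dehydrogenase) had a log2 signal of 11.58, 11.83, 11.45 and 11.37 with EEDS and 10.95, 11.17, 10.78 and 10.46 with helveticoside. Its log2 ratios at the middle doses (-0.13 with EEDS and -0.17 with helveticoside) were smaller than the scanner software's error of 0.20. Those at the low doses (0.25 and 0.22) were close to that error. ALDH6A1, which turns methylmalonate semialdehyde into propionyl-CoA at the end of the branch, had 9.63, 10.04, 9.12 and 9.02 with EEDS and 9.49, 9.72, 9.13 and 8.46 with helveticoside. At the top doses the log2 ratio of HIBADH was -0.22 and -0.49, and ALDH6A1 was 1.53-fold lower with EEDS and 2.05-fold lower with helveticoside.

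Counted over the list by the probes used, no member was over 2-fold from its vehicle at either low dose, where 4.21% of all genes were higher and 3.66% lower with EEDS and 3.37% and 4.31% with helveticoside. At 5 μg/mL EEDS and at 15 nM helveticoside, ACADSB and BCKDHB were over 2-fold lower (2 of 10), where 8.46% and 8.06% of all genes were. At 20 μg/mL EEDS these were ACADSB, BCKDHB and DBT (3 of 10, where 14.5% of genes were lower and 13.3% higher), and at 60 nM helveticoside ACADSB, BCKDHB and ALDH6A1 (3 of 10, where 12.8% were lower and 10.8% higher). Over the alternatives, DBT passed 2-fold at 20 μg/mL EEDS in 7 of 10, and ALDH6A1 at 60 nM helveticoside in 6 of 10. These counts of 2 or 3 genes were not tested against their backgrounds. Since the list was chosen with earlier results of these data known, its counts and medians are not independent of the data. The same limit holds for the counts of members in the fits below. The median log2 ratio of the 10 genes at the top dose was -0.59 with EEDS and -0.65 with helveticoside, beside 0.02 and -0.0039 over all 19046 genes. Of the 10, 8 lay below their vehicle at both top doses. Among all 19046 genes, 8631 lay below it at 20 μg/mL EEDS and 9702 at 60 nM helveticoside. The 8 markers of A549 and epithelial cells were also lower there, with medians of -0.68 and -0.75, and 3 of them had a falling trend with EEDS and 2 with helveticoside. The fit over both agents that is described further on called 6 of the 8 lower at the top dose (19.8% of all genes). None of the measured leukocyte, endothelial and fibroblast markers had a trend, and the part of either marker set in the members' values was not tested. Against the helveticoside vehicle in place of its own, HIBADH was 0.42 above at 20 μg/mL EEDS, so its small difference there depends on the vehicle array used.

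The dose trend was tested across all 19046 genes with limma, as a slope of log2 signal per dose step (0 for the vehicle, then 1, 2 and 3). ACADSB fell with both agents, with a slope of -0.79 ± 0.09 per step with EEDS (SE, n = 4 arrays, adjusted p = 0.0142) and of -1.20 ± 0.09 with helveticoside (n = 4, adjusted p = 0.0165). BCKDHB fell with helveticoside, with a slope of -1.08 ± 0.17 per step (adjusted p = 0.0262), and its EEDS slope of -0.56 ± 0.17 did not pass (adjusted p = 0.0874). The helveticoside slope of BCKDHB includes the 60 nM spot, which was not well above background. So 1 of 10 members fell with EEDS, where 7.85% of genes fell and 7.26% rose, and 2 of 10 fell with helveticoside, where 5.8% fell and 5.48% rose. No member rose. The shares of all genes take in 4269 genes that were well above background on no array. By the same call, 9 of the 10 members passed on every array. A fit of only the 11498 genes that passed on each array called 3604 for EEDS and 2773 for helveticoside, rising or falling. Over all 19046 genes the calls were 2877 and 2148. The shares of all genes are therefore a low background for most members in this test. Other shares of all genes given here have the same base. The error estimates of the slopes come from the scatter of the arrays about a straight line, with 4 residual degrees of freedom for both series together. Leaving out any 1 dose of each series, or fitting either series alone, left 0 of 19046 genes below the threshold (3266 to 5397 genes had an unadjusted p under 0.05).

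Among the other members, the slopes of BCAT2 were -0.26 ± 0.10 with EEDS and -0.28 ± 0.10 with helveticoside (adjusted p = 0.124 and 0.126). For ALDH6A1 they were -0.28 ± 0.14 and -0.37 ± 0.14 (adjusted p = 0.251 and 0.159), and for DBT -0.41 ± 0.17 and -0.26 ± 0.17 (adjusted p = 0.168 and 0.411). BCAT1, with its peak at the middle dose, had wide intervals of -0.82 to 1.22 per step with EEDS and -0.57 to 1.47 with helveticoside. The interval of BCKDHA was -0.18 to 0.23 with EEDS and -0.15 to 0.25 with helveticoside, which leaves out slopes as steep as those of ACADSB. Adjusted p was between 0.232 and 0.849 for both slopes of IVD, MCCC1 and HIBADH.

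**Figure D2:**
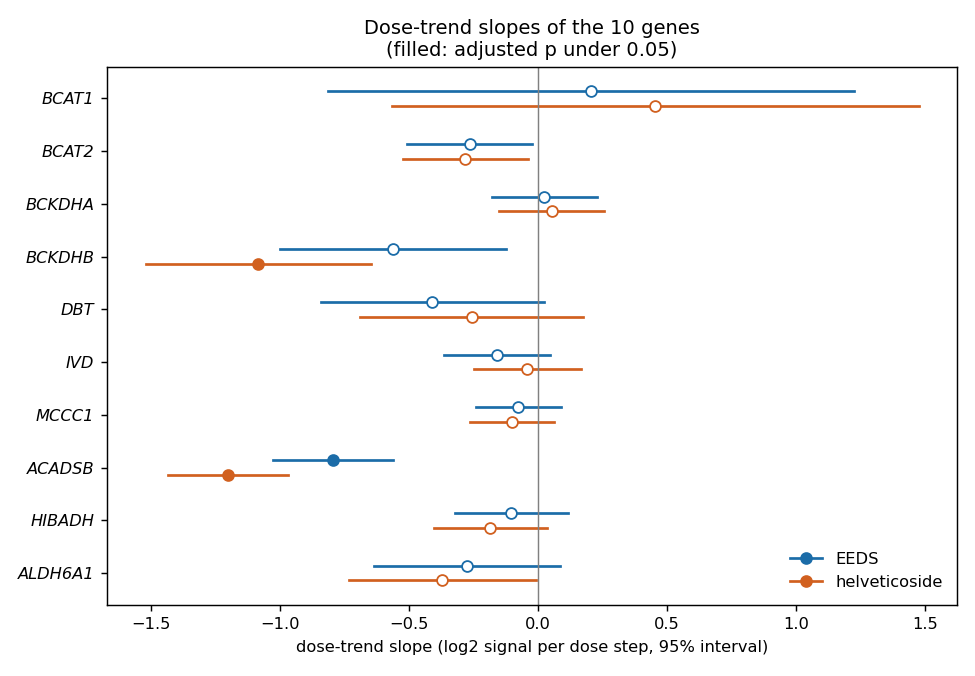
Dose-trend slope of each of the 10 genes in log2 signal per dose step (x axis), with its 95% interval from limma, for EEDS (blue) and helveticoside (orange). Filled points, for ACADSB with both agents and BCKDHB with helveticoside, passed an adjusted p of 0.05, and the BCAT1 intervals are the widest. The BCKDHB spot at 60 nM helveticoside was not well above background.

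The agents were compared by the difference of the slopes in the same fit, matched by dose step since the doses themselves differ. After adjustment, limma found a difference for 0 of 10 members and 0 of 19046 genes, while at an unadjusted p under 0.05 there were 1 member and 525 genes. That member was ACADSB, whose helveticoside slope was steeper by 0.41 (difference -0.41, interval -0.74 to -0.08, adjusted p = 1.0 in limma). For BCKDHB the difference was -0.52 with an interval of -1.14 to 0.10, and for BCAT1 0.25 with an interval of -1.19 to 1.69. The intervals of BCKDHA, MCCC1 and BCAT2 were narrower, the widest of these being -0.36 to 0.33 for BCAT2. A missed threshold in so small a design does not show that extract and glycoside acted alike on these genes.

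A straight line cannot describe BCAT1, so a further fit, chosen after its values were seen, gave each dose step a mean over both agents, with the series as a block and 3 residual degrees of freedom. It takes the array of each agent at a step as if they were replicates of that step, so its p-values measure how closely the 2 agents coincide and not the spread between cultures. At the middle dose BCAT1 was higher by 1.93 ± 0.37 (SE, 2 arrays against 2, adjusted p = 0.0289 in limma) and BCKDHA by 0.37 ± 0.06 (adjusted p = 0.0225), while ACADSB was lower, at -1.91 ± 0.33 (adjusted p = 0.0247). Over all genes, 10.7% were called higher and 11.4% lower at this step. BCKDHB was at -1.64 ± 0.48 and did not pass (adjusted p = 0.0762), though it did in 5 of 6 alternatives. With all probes of a gene averaged, the BCAT1 call was lost (adjusted p = 0.0512), and with the authors' table that of BCKDHA was lost (adjusted p = 0.0947).

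At the top dose this fit called 7 of 10 members lower and none higher, where 19.8% of all genes were called lower and 18.4% higher. They were ACADSB (-2.92 ± 0.33), BCKDHB (-2.27 ± 0.48), DBT (-1.02 ± 0.18), ALDH6A1 (-0.82 ± 0.16), BCAT2 (-0.80 ± 0.15), HIBADH (-0.35 ± 0.10) and MCCC1 (-0.33 ± 0.09), with adjusted p between 0.0043 and 0.0457 in limma. IVD was at -0.37 ± 0.12 and did not pass (adjusted p = 0.0791), nor did BCAT1 (0.43 ± 0.37, adjusted p = 0.438) or BCKDHA (0.07 ± 0.06, adjusted p = 0.478). Scaling each array to its 75th percentile, after which the ratios of all genes had a median of -0.36 on the log2 scale at 20 μg/mL EEDS and of -0.18 at 60 nM helveticoside, ended the calls of HIBADH (-0.20) and MCCC1 (-0.25) and called BCKDHA higher (0.35, adjusted p = 0.039). The direction of the smallest shifts is therefore relative to the scaling, whereas ACADSB, DBT, ALDH6A1 and BCAT2 were called lower at the top dose in 7 of 7 alternatives, and BCKDHB in 6 of 6, not being tested among genes well above background on all arrays. From the middle to the top dose, DBT changed by a further -0.97 ± 0.18 (adjusted p = 0.0449), and the BCAT1 difference was -1.49 ± 0.37 and did not pass (adjusted p = 0.0745). Over all genes, 4.65% were called higher and 5.37% lower in this comparison. At the low dose no member was called (limma called 2 genes higher, 0.0105% of all, and 0 lower, 0.0%), and BCKDHA and IVD had an unadjusted p under 0.05 (0.0304 and 0.0193).

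Of the members, 3 had more than 1 probe, which gave a second reading of the same RNA. For ACADSB the second probe gave log2 signals of 7.49, 7.15, 6.28 and 5.14 with EEDS and 7.70, 7.26, 5.94 and 3.91 with helveticoside, again lower at each dose, though it was not well above background at 60 nM. For BCKDHB the third probe gave log2 ratios to the vehicle of -0.53, -1.34 and -1.65 with EEDS and -0.11, -1.57 and -2.45 with helveticoside, and was not well above background at 60 nM either. The second probe of BCKDHB, which matches another transcript of the gene, gave -0.10, -1.45 and -1.58 with EEDS and was not well above background on any array of the helveticoside series. The second probe of BCAT1 gave 5.56, 6.76, 7.96 and 7.44 with EEDS and 4.44, 3.15, 7.32 and 6.67 with helveticoside. Both BCAT1 probes were highest at the middle dose, but the second remained well over its vehicle at 20 μg/mL EEDS, where the first was near it, and it was not well above background on the vehicle and low-dose arrays of helveticoside. The second lay further above its vehicle than the first at all 3 EEDS doses, with log2 ratios of 2.40 against 2.04 at 5 μg/mL and 1.88 against 0.13 at 20 μg/mL, and with helveticoside it was at least 3.40-fold higher at 15 nM and at least 2.17-fold higher at 60 nM.

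**Figure D3:**
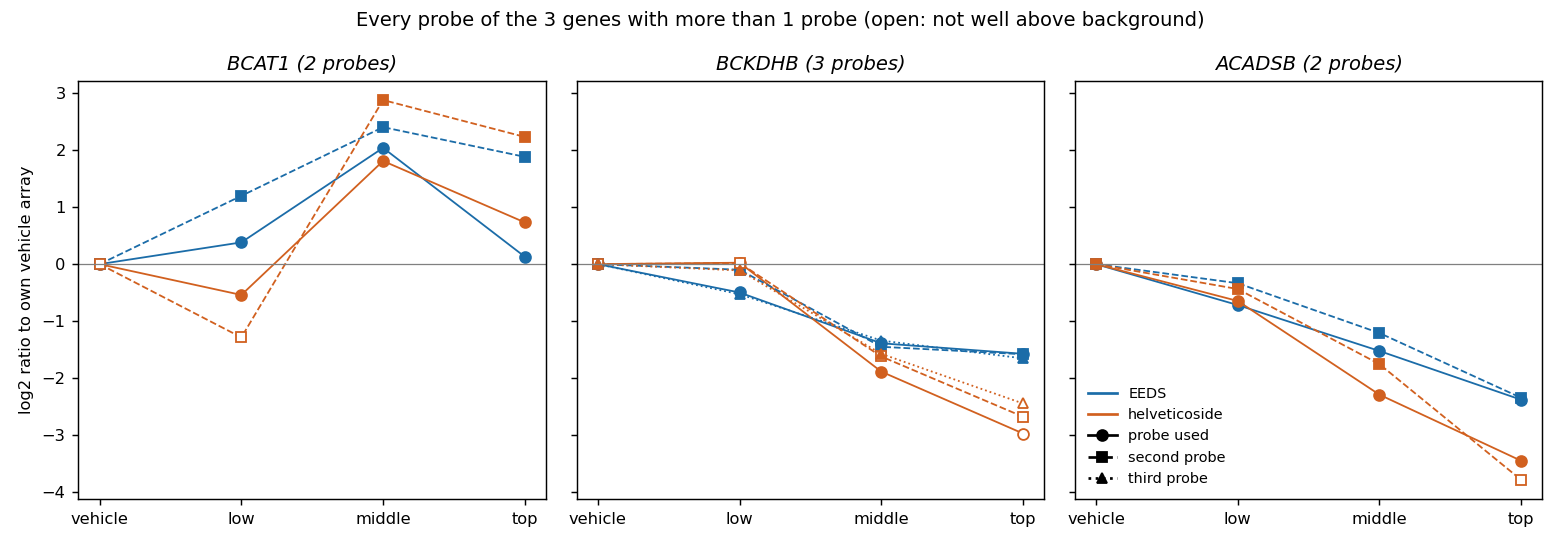
Log2 ratio to the vehicle array of the same series (y axis) for every probe of BCAT1, BCKDHB and ACADSB on the vehicle, low, middle and top dose arrays (x axis), with open points for spots not well above background. The probes of BCKDHB and of ACADSB run close together, and the 2 probes of BCAT1 share a peak at the middle dose and differ at 20 μg/mL EEDS.

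Another 19 genes of the route were all measured. Of these 3 fell with EEDS (7.85% of all genes did) and the same 3 fell with helveticoside (5.8%), where 1 more rose (5.48%). At the top dose the fit over both agents called 7 of the 19 lower and 3 higher. Among all genes, 19.8% were called lower there and 18.4% higher. The median log2 ratio of the 19 genes at the top dose was -0.16 with EEDS and -0.32 with helveticoside. DLD, the E3 component that BCKDH shares with sister complexes, was at -0.33, -0.41 and -0.66 with EEDS and at -0.15, -0.26 and -0.51 with helveticoside. Its dose trend did not pass with either agent (adjusted p = 0.0612 and 0.117). The fit over both agents called DLD lower at the top dose (-0.59 ± 0.10, adjusted p = 0.0119 in limma).

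The enzymes that switch BCKDH had slopes of opposite sign. BCKDK, the kinase that inactivates E1 by phosphorylating BCKDHA, had log2 ratios of -0.58, -1.32 and -1.94 at the 3 EEDS doses and -0.05, -1.04 and -1.97 at the 3 helveticoside doses. It fell with both agents, with slopes of -0.66 ± 0.10 per step with EEDS (adjusted p = 0.0199) and -0.69 ± 0.10 with helveticoside (adjusted p = 0.023), ending 3.84-fold and 3.92-fold below the vehicle. PPM1K, the mitochondrial phosphatase that reactivates the complex, was at 0.92, 1.24 and 1.17 with EEDS and did not pass (0.38 ± 0.16 per step, adjusted p = 0.163). It rose with helveticoside (0.74 ± 0.16 per step, adjusted p = 0.0446), and, its vehicle spot there being not well above background, was at least 4.49-fold higher at 60 nM. Within an array, the ratio of PPM1K to BCKDK at 20 μg/mL EEDS was 8.66 times that on the vehicle array. Protein, phosphorylation and enzyme activity were not measured by these arrays.

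The other genes with a trend belong to the handling of propionate, the end product of isoleucine and valine. MMAA and MMAB, which deliver and make the adenosylcobalamin cofactor of methylmalonyl-CoA mutase, fell with both agents. MMAA had slopes of -1.06 ± 0.12 with EEDS and -0.75 ± 0.12 with helveticoside (adjusted p = 0.0133 and 0.025), but was well above background on 3 of 8 arrays, and was at least 3.82-fold lower at 20 μg/mL EEDS and at least 2.36-fold lower at 60 nM helveticoside. MMAB had slopes of -0.51 ± 0.11 and -0.73 ± 0.11 (adjusted p = 0.0403 and 0.0251), and was 2.87-fold lower at 20 μg/mL EEDS and at least 4.97-fold lower at 60 nM helveticoside. MMUT, the mutase itself, was 0.39 above its vehicle with EEDS and 0.15 above it with helveticoside on the log2 scale at the top doses. Neither trend of MMUT passed (adjusted p = 0.113 and 0.484 in limma), nor did the top dose in the fit over both agents (adjusted p = 0.0939). The plot of the whole route shows the top doses.

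**Figure D4:**
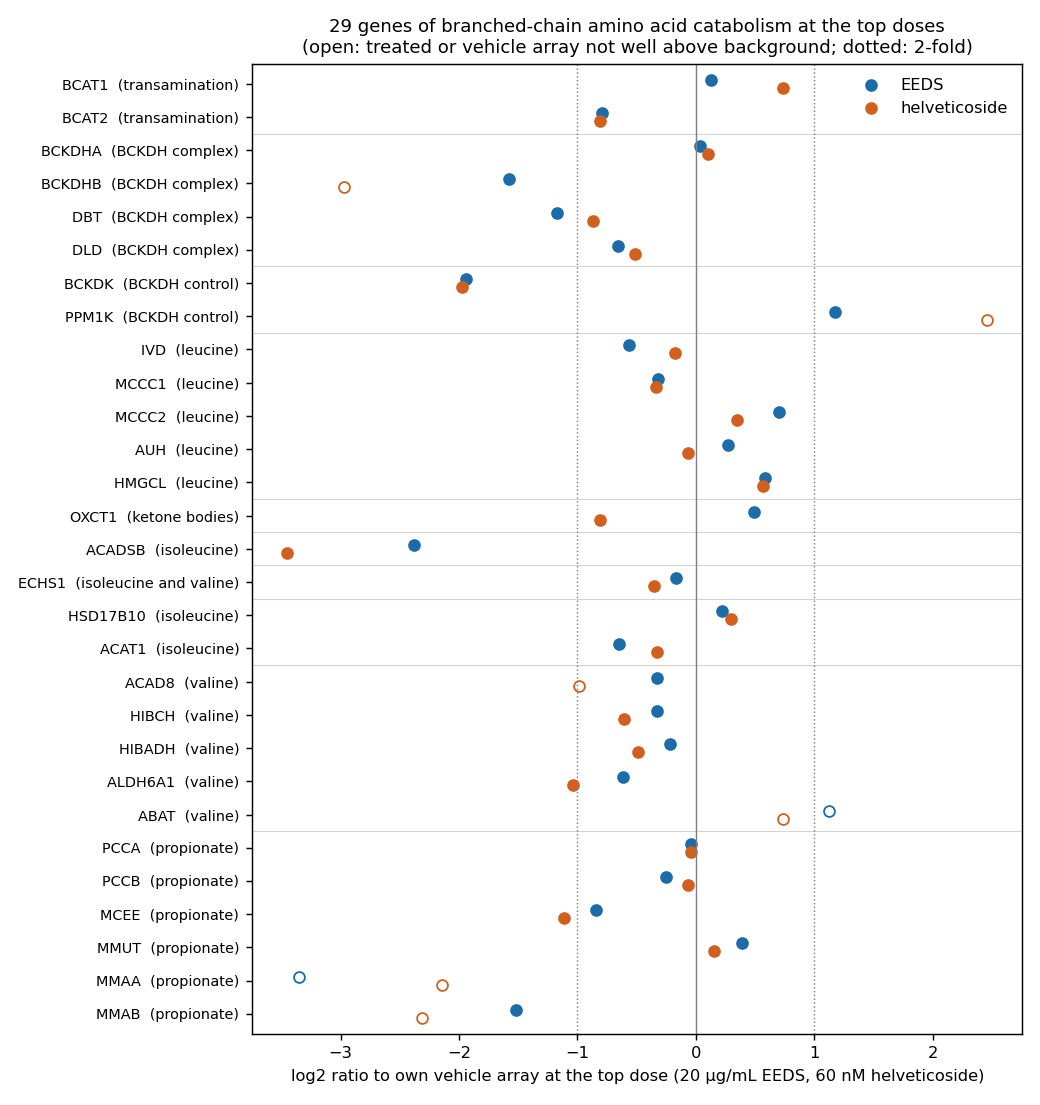
Log2 ratio to the vehicle array at the top dose (x axis; 20 μg/mL EEDS in blue, 60 nM helveticoside in orange) of the 29 measured genes of branched-chain amino acid catabolism in the order of the route (y axis), with 2-fold as dotted lines and open points where either array was not well above background. ACADSB, BCKDHB, BCKDK, MMAA and MMAB lie beyond 2-fold lower with both agents, and PPM1K lies beyond 2-fold higher.

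Of 6 transporters of branched-chain amino acids, 5 were measured and none had a trend with either agent. SLC43A1 (LAT3) was 2.82-fold higher at 5 μg/mL EEDS, 3.43-fold at 15 nM and 2.37-fold at 60 nM helveticoside, and the fit over both agents called it higher at the middle dose (1.64 ± 0.14, adjusted p = 0.0135) and at the top dose (1.02 ± 0.14, adjusted p = 0.0071). SLC7A5 (LAT1), the light chain of the main exchanger of large neutral amino acids, had 0.52, 1.14 and 0.92 with EEDS and -0.30, 1.48 and 1.47 with helveticoside, and did not pass in that fit (adjusted p = 0.0616 and 0.0545). Both were over 2-fold higher at the middle dose of both agents. SLC43A2 (LAT4) was over 2-fold lower at both top doses. Its log2 ratios were -1.73, -1.92 and -1.13 with EEDS (adjusted p = 0.569 for the trend), and at 60 nM helveticoside, where the spot was not well above background, it was at least 5.21-fold lower (adjusted p = 0.127).

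Related genes, outside the route except for ECHS1, give the setting. The sister complexes of BCKDH, pyruvate and 2-oxoglutarate dehydrogenase, have the same design of E1, E2 and the shared E3, and 6 of their genes were measured, with medians of 0.06 and 0.07 at the top doses of EEDS and helveticoside. None had a falling trend, but at the top dose the fit over both agents called 3 of the 6 lower, PDHB (-0.53, adjusted p = 0.0084), PDHA1 (-0.34, adjusted p = 0.0256) and DLAT (-0.49, adjusted p = 0.0486), which encode E1 and E2 of the pyruvate complex, and 2 higher. That fit called 19.8% of all genes lower and 18.4% higher at this dose. PDHX, which anchors E3 in the pyruvate complex, rose with both agents (0.43 ± 0.06 and 0.33 ± 0.06 per step, adjusted p = 0.019 and 0.0364), as did DLST, the E2 of the 2-oxoglutarate complex (0.22 ± 0.04 and 0.18 ± 0.04, adjusted p = 0.0247 and 0.0448). OGDH, its E1, rose with helveticoside (0.28 ± 0.06, adjusted p = 0.0481) and did not pass with EEDS (0.11 ± 0.06, adjusted p = 0.314).

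ACADSB belongs to the acyl-CoA dehydrogenases, and 8 members of that family from outside the route were measured. IVD and ACAD8, which belong to both the family and the route, are not among these 8. None of the 8 had a trend, while at the top dose the fit over both agents called 3 of them lower, ACAD9 among these (-1.48, adjusted p = 0.0087), and their medians at the top doses were -0.31 and -0.25. ACAD9 came nearest to ACADSB, with log2 ratios of -0.89, -1.54 and -1.35 with EEDS and -0.25, -1.51 and -1.60 with helveticoside (adjusted p = 0.0874 and 0.0571). Of 20 genes of fatty acid oxidation, 4 of which are among these dehydrogenases, 4 fell with EEDS, 2 fell with helveticoside and none rose (medians -0.19 and -0.25), where 7.85% and 5.8% of all genes fell. ECHS1 is among the 20 and also belongs to the route. Of 23 subunits of respiratory complex I, 4 fell with EEDS and none had a trend with helveticoside (medians -0.01 and -0.05). The fit over both agents called 8 of the 20 lower and 1 higher at the top dose, and 7 of the 23 lower and 3 higher, where 19.8% of all genes were called lower and 18.4% higher.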

How the data were processed

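The authors deposited, for each of the 8 arrays, the scanner software's intensity per spot (signal, local background, processed signal and spot calls), and a table of processed intensity values. Labels give 48 h of exposure and the methods 24 h. Of 44495 spots, control spots and outliers (246 to 331 per array) were dropped. Processed signals of a probe were averaged, quantile-normalized over the 8 arrays and put on the log2 scale, since the deposited intensity is linear. Of 34127 probes, 24827 matched 19062 genes through RefSeq accessions (GRCh38.p14, names only), and the brightest probe stood for a gene. A gene was kept when at least 1.4 times over local background on at least 1 array of each series (19046 genes).

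Dose trends were fitted with limma 3.58.1 (R 4.3.3, trend and robust estimation), with an intercept and slope per series, and adjusted by Benjamini-Hochberg over all genes at 0.05. The fits were tested on simulated data. The members and gene lists were chosen with earlier results of these data known. The rule for naming genes was all 10 members, and from 4 of the other lists (the rest of the route, transport, sister complexes, acyl-CoA dehydrogenases) those with a trend or over 2-fold from the vehicle at both top doses, at most 6 per list. DLD, MMUT, SLC43A1, SLC7A5, PDHB, PDHA1, DLAT and the motifs were chosen after values were seen. The sequence of 1 further promoter is not reported here. A gene not well above background has only a bound, set at the higher of its own signal and the lowest signal well above background on that array. Alternatives covered background correction, scaling, filters, probes, doses left out, linear dose, the other vehicle array and the fold threshold. The files carry no scan or slide dates, so batches beyond the series could not be examined.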

Additional observations from a re-analysis of the deposited data

How the results depend on the processing

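No paired analysis was possible because the labels give no replicate numbers and each dose has 1 array. The count of members with an EEDS trend (1) became 2 with scaling to the 75th percentile and with the authors' table, BCKDHB joining ACADSB. The count with a helveticoside trend (2) became 1 with the authors' table, 1 among genes well above background on all 8 arrays (where BCKDHB was not tested) and 0 with linear dose. Among the other 19 genes of the route, the EEDS count (3) became 1 with the well-above-background filter and 0 with linear dose, and the helveticoside count (3 falling and 1 rising) became 2 with normexp correction, 1 with the authors' table, 1 with the well-above-background filter and 0 with linear dose. Without the lowest, the middle or the top dose, and with the 4 arrays of 1 agent alone, each of these counts was 0, as was the count over all 19046 genes. These fits have fewer arrays and fewer degrees of freedom. Members over 2-fold at 60 nM helveticoside rose from 3 to 6 against the other series' vehicle array, all lower (16.5% of all genes were). With a 1.5-fold threshold there were 5 at the top dose of EEDS, all lower (23.2% of all genes), and 6 at that of helveticoside, 5 lower (20.4%) and BCAT1 higher (20.5%). Slopes turned sign in 6 cases: BCKDHA with EEDS to -0.021 with the authors' table, DBT with helveticoside to 0.052 and MCCC1 with EEDS to 0.00014 without the top dose, and with linear dose BCAT1 with EEDS to -0.27 and BCKDHA to -0.078 with EEDS and -0.031 with helveticoside. With linear dose, DBT was the member called for EEDS in place of ACADSB. The ACADSB trend was called in 10 of 14 alternatives on the scale of dose steps for each agent, and its fall passed 2-fold at the top dose in 10 of 10. Its log2 ratio at the top dose ranged from -2.70 to -2.02 with EEDS and from -3.62 to -2.39 with helveticoside. The BCKDHB trend with helveticoside was called in 8 of 13 alternatives on that scale of dose steps, with slopes from -1.08 to -0.52. The cause of these changes was not tested. With 1 array per dose, the number of arrays limits the precision throughout.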
